A study of Mus musculus with 20 samples.

Results

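The genes followed here are 32 markers of the hippocampal subfields, out of 57126 genes counted in each library: 6 for CA1 pyramidal cells (Wfs1, Fibcd1, Man1a, Mpped1, Pou3f1 and Spink8), 11 for CA2 and CA3 pyramidal cells (Rgs14, Pcp4, Amigo2, Necab2, Bok, Iyd, Coch, Nrip3, Cpne4, Elavl2 and Socs2) and 15 for dentate granule cells (Prox1, C1ql2, C1ql3, Dsp, Lct, Pdzd2, Rfx3, Stxbp6, Trpc6, Glis3, Calb1, Tdo2, Npnt, Plk5 and Dock10). The genes were chosen by name as subfield markers and not by a threshold on a measured value, but with earlier results of these data known. All 32 were found, and all 32 passed the filter on low counts. RNA came from the dissected hippocampus of 20 male C57BL/6 mice, 5 in each of 4 groups, with 1 library per mouse. Every mouse had been adrenalectomized at about 2.5 months of age, an operation that removes the main source of glucocorticoid, and was used 2 weeks later. Wild-type mice carried the normal Nr3c1, the gene of the glucocorticoid receptor. Homozygous GRA knockin mice had isoleucine codons in exon 2 of Nr3c1 in place of the starts of 7 shorter receptor forms, and kept the start of the full-length GRA form. The knockin was in the germline, so all cell types of the hippocampus carried it. Mice of each genotype were injected intraperitoneally with PBS or with dexamethasone, a synthetic glucocorticoid, in a dose of 1 mg per kg, and the hippocampus was removed after 6 h.

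The hippocampus is a folded sheet of cell fields joined in series. Granule cells of the dentate gyrus send mossy fibres to CA3 pyramidal cells, CA3 cells project to CA1, and CA2 lies between them with its own inputs. Each field has a set of genes that it uses far more than its neighbours, so in RNA of the whole structure the level of these genes follows both how much of a field was dissected and how active the gene was in it. Fewer cells of a type and less RNA per cell cannot be told apart in such bulk samples. Granule cells and pyramidal cells carry the glucocorticoid receptor and the mineralocorticoid receptor Nr3c2, and the granule cell layer is known to lose cells after adrenalectomy in rats.

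The libraries held 11493014 to 48267708 read pairs assigned to genes. Nr3c1 was detected in all 20, at 118 to 171 CPM (library-scaled counts, with edgeR's TMM factors) in wild-type PBS, 142 to 197 in knockin PBS, 88.6 to 107 in wild-type dexamethasone and 96.1 to 117 in knockin dexamethasone libraries. Gene counts cannot show the changed start codons, so they do not check the genotype. Liver transcripts, summed over 16 genes, reached 262 and 153 CPM in wild-type PBS replicates 1 and 2 and lay between 10.6 and 62.0 in the other libraries. Choroid plexus transcripts, summed over 13 genes, reached 2624 CPM in wild-type PBS replicate 4 and 2131 in knockin dexamethasone replicate 2, against 201 to 1093 elsewhere.

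In the subfield genes themselves 3 PBS libraries stood apart: wild-type PBS replicate 3 and knockin PBS replicates 2 and 3. They were singled out after the values were seen. Of the 32 genes, 15, 15 and 17 had one of their 3 lowest values in these libraries, while over all 18648 genes tested the same held for 16.1%, 18.0% and 19.6% of genes. Spink8, Amigo2, Necab2, Dsp, Pdzd2, Calb1, Tdo2 and Npnt were lower in all 3 than in each of the other 17 libraries, and Plk5 was higher in all 3 than in each of the other 17. These 9 genes are drawn from all 3 subfield lists (1 of 6 CA1, 2 of 11 CA2/CA3 and 6 of 15 dentate genes), and 3.56% of all genes tested were as far apart in these libraries. The libraries were picked on the values of the subfield genes, so the excess over all genes follows from the choice and is no separate result. Knockin dexamethasone replicate 2 lay at the other end, with one of the 3 highest values for 12 of the 32 genes beside 16.6% of all genes tested, and knockin PBS replicate 2 also had 9 such high values beside 15.7%. Beside the subfield genes, 4 genes are given in the same libraries, 3 of them chosen after their values were seen. Fkbp5, a receptor co-chaperone gene induced by glucocorticoid, was at 22.7 to 27.9 CPM in the 3 libraries at 36.2 to 69.2 in the other 7 PBS libraries and at 103 to 169 in the dexamethasone libraries. Zbtb16, a transcription factor gene also induced by glucocorticoid, was at 32.5 to 41.8, 50.7 to 74.3 and 81.7 to 113 CPM in the same order. Nr3c2 was at 360 to 406, 234 to 307 and 207 to 280 CPM, and Nr3c1 at 171 to 197, 118 to 148 and 88.6 to 117 CPM. For each of these 4 genes the 3 libraries lay farther from the dexamethasone libraries than the other PBS libraries did. Within wild-type PBS, the liver-high replicates 1 and 2 had the highest values of Fkbp5 (64.4 and 69.2 CPM) and Zbtb16 (63.3 and 74.3 CPM). They were also the highest of that group for Spink8, Amigo2, Necab2, Dsp, Pdzd2, Calb1, Tdo2 and Npnt, the genes that were lowest in replicate 3. Within knockin PBS, replicates 4 and 5 had the highest values of Fkbp5 (69.0 and 58.1 CPM) and Zbtb16 (64.0 and 64.4 CPM). They were the highest of knockin PBS for the same subfield genes except Necab2. Their liver transcripts were at 39.1 and 14.6 CPM, and those of knockin PBS replicate 2, with Fkbp5 at 27.9 CPM, were at 37.1 CPM. The summed level of 7 ventral hippocampus markers was 201, 240 and 213 CPM in the 3 libraries, 264 to 452 in the other PBS libraries and 200 to 403 in the dexamethasone libraries. The part of these differences in the results below was not tested, and each call of a subfield gene is given with and without the 3 libraries.

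**Figure D1:**
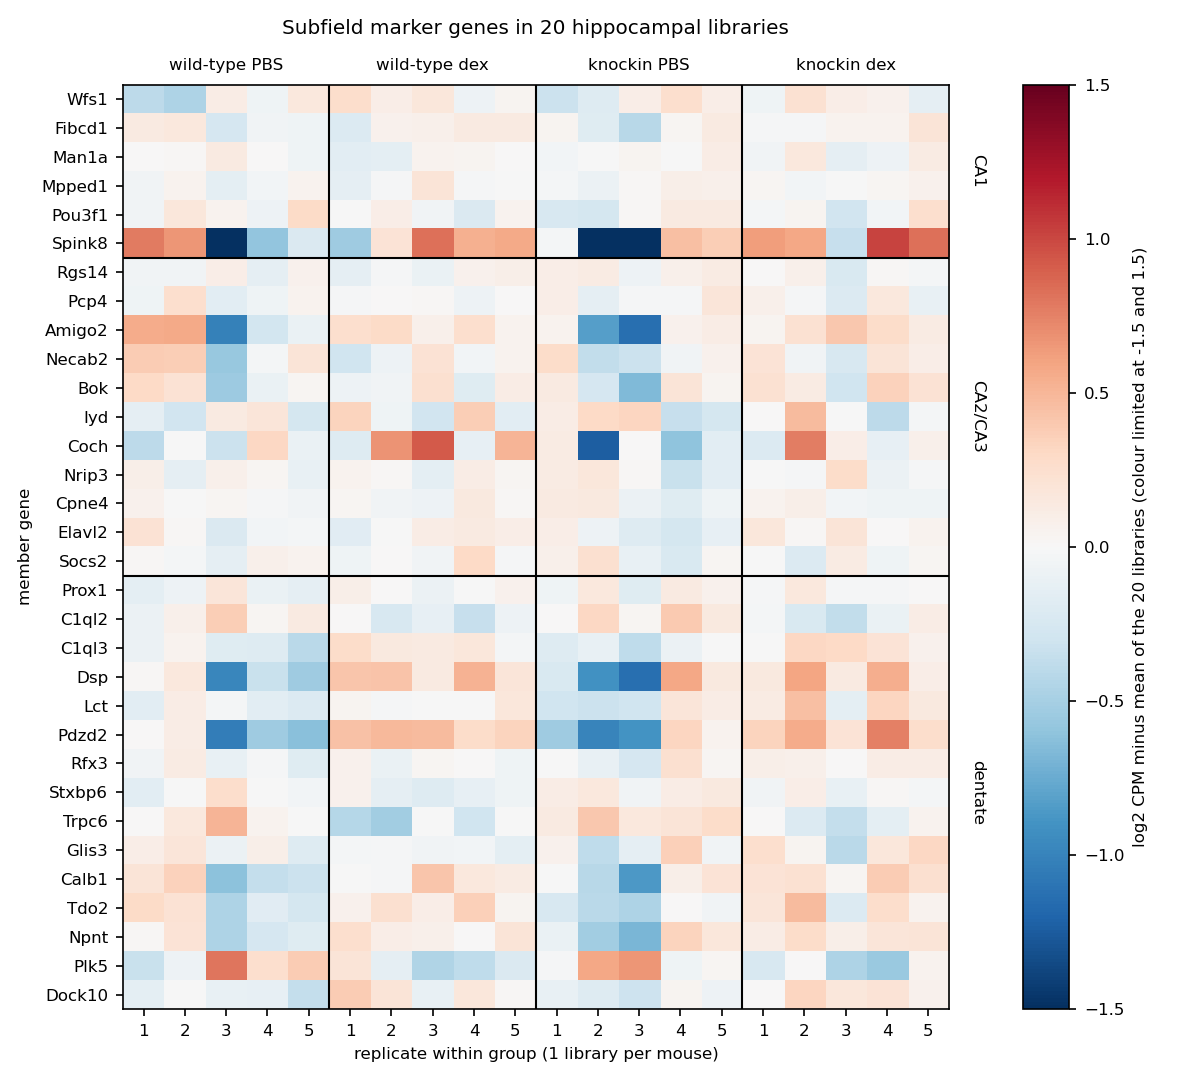
Heatmap of the 32 subfield genes (rows, in the order CA1, CA2/CA3, dentate) in the 20 libraries (columns, by group and replicate). Colour is log2 CPM minus the gene's mean over the 20 libraries. Wild-type PBS 3 and knockin PBS 2 and 3 are blue for Spink8, Amigo2, Necab2, Dsp, Pdzd2, Calb1, Tdo2 and Npnt and red for Plk5.

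Levels of different genes were compared per kilobase of exonic length (mean over 20 libraries, with SD). Among CA1 genes, Mpped1, which encodes a metallophosphoesterase-domain protein, was highest at 71.7 ± 3.88 CPM per kb. Wfs1, the endoplasmic reticulum protein wolframin, followed at 45.5 ± 6.29 and the membrane receptor gene Fibcd1 at 37.4 ± 3.88 CPM per kb. Man1a, a Golgi mannosidase, was at 17.9 ± 1.13, the serine protease inhibitor gene Spink8 at 14.9 ± 6.95 and the POU transcription factor Pou3f1 at 13.5 ± 1.52 CPM per kb, and the spread of Spink8 covers both neighbours. Among CA2 and CA3 genes the highest was Nrip3 at 64.0 ± 5.94 CPM per kb. Rgs14, a regulator of G protein signalling that restrains plasticity in CA2, stood at 45.4 ± 3.03 and the calmodulin-binding gene Pcp4 at 39.2 ± 3.24 CPM per kb. Of the 641 exonic bases of Pcp4, 243 are shared with Igsf5 on the same strand, which makes the level of Pcp4 uncertain. Bok, of the Bcl2 family, and Necab2, a neuronal calcium-binding protein, were at 33.0 ± 5.77 and 31.4 ± 5.39 CPM per kb, closer to each other than their spread. Below them came the copine Cpne4 at 25.8 ± 1.54, the RNA-binding protein gene Elavl2 at 15.7 ± 1.51, the adhesion protein gene Amigo2 at 6.21 ± 1.68 and the cytokine signalling suppressor Socs2 at 5.12 ± 0.474 CPM per kb. The lowest were Iyd, iodotyrosine deiodinase, at 3.79 ± 0.721 and Coch, the extracellular protein cochlin, at 2.15 ± 0.743 CPM per kb.

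Among dentate genes C1ql2, a secreted synaptic organizer of the mossy fibre synapse, was highest at 47.8 ± 7.13 CPM per kb. The SNARE-binding protein gene Stxbp6 followed at 34.4 ± 2.93, then C1ql3, a paralogue of C1ql2 with a like role, at 27.9 ± 3.96 and the calcium buffer Calb1 at 27.6 ± 5.83 CPM per kb. Calb1 is also used by CA1 pyramidal cells. Prox1, the homeobox factor that fixes granule cell identity, was at 18.3 ± 1.4 CPM per kb, the guanine nucleotide exchange factor Dock10 at 15.9 ± 2.18 and the ciliary transcription factor Rfx3 at 14.9 ± 1.18. The remaining dentate genes lay between 12.8 ± 3.66 CPM per kb for the polo-like kinase Plk5 and 1.90 ± 0.266 for the zinc finger factor Glis3. No gene of the 3 lists was absent from any library: the lowest count of any of them was 33 read pairs, for Spink8.

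After dexamethasone several dentate genes were called with all 20 libraries, and no CA1 or CA2/CA3 gene was. In the mean response of both genotypes, 7 of 32 genes were called at an adjusted p below 0.05 (edgeR quasi-likelihood test, Benjamini-Hochberg adjustment over 18648 genes), and all 7 were among the 15 dentate genes. Pdzd2, C1ql3, Tdo2 and Dock10 were higher (9.79% of all genes were called higher) and Trpc6, Plk5 and C1ql2 lower (8.41%) after dexamethasone. Over all genes tested 18.2% were called, so the 7 of 32 lies near that background. The dentate list, with 7 of 15 called and a median size of change of 0.28 on the log2 scale against 0.08 over all genes, lay above it. Without the 3 PBS libraries that stood apart, Plk5 and Tdo2 of these 7 lost their calls, and 12.9% of all genes were called. The median size without those libraries is not given. In the CA2/CA3 list, Amigo2 and Elavl2 were called for the mean response when the liver-high wild-type PBS replicates 1 and 2 were left out. Whether the share differed between the dentate list and the other lists was not tested. At an unadjusted p below 0.05 there were 12 of 15 dentate, 2 of 11 CA2/CA3 and 0 of 6 CA1 genes, beside 28.9% of all genes. Within a single genotype 2 genes were called in wild-type mice (C1ql3 higher and Trpc6 lower, beside 9.21% of all genes) and 1 in knockin mice (C1ql3 higher, beside 10.0%). The wild-type calls were lost under 11 of 30 alternatives for C1ql3 and under 10 of 30 for Trpc6, and the knockin call of C1ql3 under 2 of 30, with no change of direction. Leaving out a single knockin library hardly moved the wild-type estimates (C1ql3 0.295 to 0.298, Trpc6 -0.391 to -0.393), so those alternatives say little about the wild-type calls. The wild-type call of C1ql3 was lost without wild-type PBS 3, 4 or 5 or wild-type dexamethasone 1, 2, 3 or 4. That of Trpc6 was lost without wild-type PBS 2 or 3 or wild-type dexamethasone 1, 2 or 4. Without knockin dexamethasone replicate 2, the mean response gave 6 called genes in place of 7, Tdo2 being lost, beside 3052 of all 18874 genes tested.

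Pdzd2, which encodes a protein with several PDZ domains that hold other proteins together, had the largest of these changes (chr15:12359797-12592642, mm39, minus strand). In wild-type mice it was at 66.4, 71.6, 32.2, 45.8 and 42.9 CPM after PBS and at 89.5, 92.5, 92.1, 80.4 and 83.7 CPM after dexamethasone. In knockin mice it was at 45.7, 33.4, 35.4, 82.7 and 68.4 CPM after PBS and at 83.5, 97.3, 76.6, 112 and 79.6 CPM after dexamethasone. The groups did not overlap in wild-type mice, which held for 8.22% of all genes, and in knockin mice they overlapped through PBS replicate 4. The mean log2 fold change was 0.77 (SE 0.17, adjusted p 0.00438 by edgeR, 95% interval 0.40 to 1.13). Neither genotype reached the threshold on its own, with an adjusted p of 0.0662 for wild-type and of 0.0594 for knockin mice. Without the 3 PBS libraries that stood apart the mean log2 fold change was 0.54 (adjusted p 0.0202 by edgeR).

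C1ql3 and C1ql2 encode sister proteins of the C1q-like family that granule cells release at mossy fibre synapses, and their transcripts changed in opposite directions. C1ql3 (chr2:13008268-13016617, minus strand) was at 65.8, 73.0, 61.9, 61.4 and 53.0 CPM in wild-type PBS and at 84.9, 77.7, 76.7, 78.6 and 68.9 CPM after dexamethasone. The knockin libraries had 61.4, 64.7, 54.0, 66.1 and 70.0 CPM after PBS and 69.8, 87.3, 86.2, 81.0 and 73.6 CPM after dexamethasone. A single dexamethasone library in each genotype, wild-type 5 and knockin 1, fell within the range of its PBS group. The mean log2 fold change of C1ql3 was 0.31 (SE 0.06, adjusted p 0.000624 by edgeR), and the genotypes taken singly gave 0.30 for wild-type (SE 0.08, adjusted p 0.0300) and 0.33 for knockin mice (SE 0.08, adjusted p 0.0127). Without the 3 PBS libraries the mean change was 0.28 (adjusted p 0.00973 by edgeR), while the adjusted p within wild-type rose to 0.0762 and within knockin mice to 0.150. Exons of 2 predicted genes on the opposite strand cover 1627 bases of C1ql3, and counting without strand makes the level of C1ql3 uncertain there.

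C1ql2 (chr1:120268312-120270903, plus strand) was at 89.0, 99.3, 122, 96.5 and 104 CPM in wild-type PBS and at 95, 79.8, 86.8, 74.2 and 89.4 CPM after dexamethasone. Its knockin values were 95, 117, 96.1, 124 and 105 CPM after PBS and 92.7, 80.4, 73.2, 88.3 and 102 CPM after dexamethasone. The groups overlapped in both genotypes. The mean log2 fold change of C1ql2 was -0.28 (SE 0.07, adjusted p 0.0106 by edgeR) and -0.25 without the 3 PBS libraries (adjusted p 0.0316 by edgeR). In a single genotype it was not called, with an adjusted p of 0.140 for wild-type and 0.0849 for knockin mice.

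The sequences upstream of the start sites were read for these genes, since the glucocorticoid receptor binds DNA at an inverted repeat. The windows are from RefSeq on GRCm38.p6, an older build than the mm39 of the counts, and 26 of the 32 genes matched at least 1 window of 300 bases (250 before the start and 50 after it). Shown are the 250 bases before the start, 5′ to 3′ on the gene's strand, of the sister genes that changed in opposite directions, of the gene with the largest change, and of Bok, whose window holds the core hexamer of the receptor's element. The hexamer is AGAACA, searched on both strands, and the full element searched is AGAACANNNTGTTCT, which contains the hexamer on each strand. Capitals mark the hexamer, which in Bok lies on the opposite strand.
C1ql2 (chr1:120340332-120340581, plus): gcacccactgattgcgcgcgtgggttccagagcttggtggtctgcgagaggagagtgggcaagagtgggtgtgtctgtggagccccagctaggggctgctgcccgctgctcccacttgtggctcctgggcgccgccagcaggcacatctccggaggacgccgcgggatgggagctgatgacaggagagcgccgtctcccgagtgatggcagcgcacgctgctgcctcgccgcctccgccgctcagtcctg
C1ql3 (chr2:13010865-13011114, minus): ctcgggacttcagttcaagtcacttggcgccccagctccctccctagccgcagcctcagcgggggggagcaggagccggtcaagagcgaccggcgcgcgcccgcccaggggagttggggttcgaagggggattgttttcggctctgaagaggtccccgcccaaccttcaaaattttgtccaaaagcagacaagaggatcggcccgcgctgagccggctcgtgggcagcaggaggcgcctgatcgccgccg
Pdzd2 (chr15:12739893-12740142, minus): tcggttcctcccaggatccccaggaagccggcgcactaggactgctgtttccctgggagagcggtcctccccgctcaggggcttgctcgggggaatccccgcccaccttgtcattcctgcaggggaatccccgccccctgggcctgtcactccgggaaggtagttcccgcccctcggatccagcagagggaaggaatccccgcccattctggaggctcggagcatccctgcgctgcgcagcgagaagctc
Bok (chr1:93685325-93685574, plus): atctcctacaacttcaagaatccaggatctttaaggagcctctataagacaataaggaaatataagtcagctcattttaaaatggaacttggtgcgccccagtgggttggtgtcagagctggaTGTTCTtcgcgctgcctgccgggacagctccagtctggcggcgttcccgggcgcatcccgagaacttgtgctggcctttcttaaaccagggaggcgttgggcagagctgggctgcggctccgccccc
The hexamer was found in 2 of the 36 windows of the 26 genes (5.56%), in Bok and Dock10, and in 19.0% of all 32851 windows in the table. In Dock10 it lay in the 50 bases after a start. The full element was in none of the windows of these genes and in 3 of all 32851. Bok itself was not called for dexamethasone (log2 fold change 0.12, adjusted p 0.587 by edgeR).

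Among the other dentate genes called, Dock10 (chr1:80478790-80736165, minus strand) was at 106, 117, 109, 108 and 91.8 CPM in wild-type PBS and at 153, 135, 109, 132 and 119 CPM after dexamethasone. The knockin mice had 109, 102, 94.6, 121 and 111 CPM after PBS and 118, 147, 132, 135 and 123 CPM after dexamethasone. The groups met at their edges in both genotypes: wild-type dexamethasone 3 and knockin dexamethasone 1 lay within the PBS range. Averaged over genotypes, Dock10 changed by 0.28 on the log2 scale (SE 0.06, adjusted p 0.00313 by edgeR), and 0.24 without the 3 PBS libraries (adjusted p 0.0373 by edgeR).

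Trpc6, a cation channel of the plasma membrane (chr9:8544143-8680742, plus strand), was at 22.9, 25.5, 32.5, 23.6 and 22.8 CPM in wild-type PBS and at 17.0, 15.8, 22.7, 18.6 and 22.8 CPM after dexamethasone. Knockin values were 25.1, 30.3, 25.5, 26.2 and 27.7 CPM after PBS and 23.0, 19.9, 17.8, 20.6 and 23.7 CPM after dexamethasone. In knockin mice the groups did not overlap, which held for 8.68% of all genes, and in wild-type mice they overlapped at 22.8 CPM. Its mean log2 fold change was -0.37 (SE 0.08, adjusted p 0.00199 by edgeR), made up of -0.39 for wild-type (SE 0.11, adjusted p 0.0348) and -0.35 for knockin mice (SE 0.11, adjusted p 0.0512). Without the 3 PBS libraries the mean change was -0.30 (adjusted p 0.00467 by edgeR), and the wild-type call was lost (adjusted p 0.0823 by edgeR).

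Plk5, a polo-like kinase found in neurons (chr10:80192293-80201323, plus strand), was at 20.6, 24.8, 45.5, 31.0 and 34.1 CPM in wild-type PBS and at 29.9, 23.7, 19.1, 20.0 and 22.5 CPM after dexamethasone. In knockin mice it was at 25.8, 38.9, 41.2, 24.9 and 26.7 CPM after PBS and at 22.1, 26.1, 18.9, 17.7 and 27.0 CPM after dexamethasone. The highest 3 values are those of the 3 PBS libraries that stood apart, and the groups overlapped in both genotypes. Over both genotypes Plk5 changed by -0.47 on the log2 scale (SE 0.15, adjusted p 0.0408 by edgeR), and by -0.24 without them (adjusted p 0.293 by edgeR).

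Tdo2 encodes tryptophan 2,3-dioxygenase, an enzyme that opens the tryptophan ring and is most abundant in liver (chr3:81864397-81883509, minus strand). It was at 10.5, 10.0, 6.23, 7.61 and 7.13 CPM in wild-type PBS and at 8.99, 10.2, 9.22, 11.1 and 8.88 CPM after dexamethasone. In knockin mice it was at 7.26, 6.46, 6.21, 8.61 and 8.27 CPM after PBS and at 9.81, 12.0, 7.48, 10.3 and 8.91 CPM after dexamethasone. The highest wild-type PBS values are from replicates 1 and 2, the libraries with 262 and 153 CPM of liver transcripts, and the groups overlapped in both genotypes. The same 2 libraries were also the highest of wild-type PBS for the subfield genes Pdzd2, Dsp, Calb1, Npnt and Amigo2. The part of liver tissue in the Tdo2 values was not tested. The mean change of Tdo2 on the log2 scale was 0.31 (SE 0.10, adjusted p 0.0275 by edgeR). It was 0.43 without the 2 liver-high libraries (adjusted p 0.000493 by edgeR) and 0.19 without the 3 PBS libraries that stood apart (adjusted p 0.213 by edgeR).

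**Figure D2:**
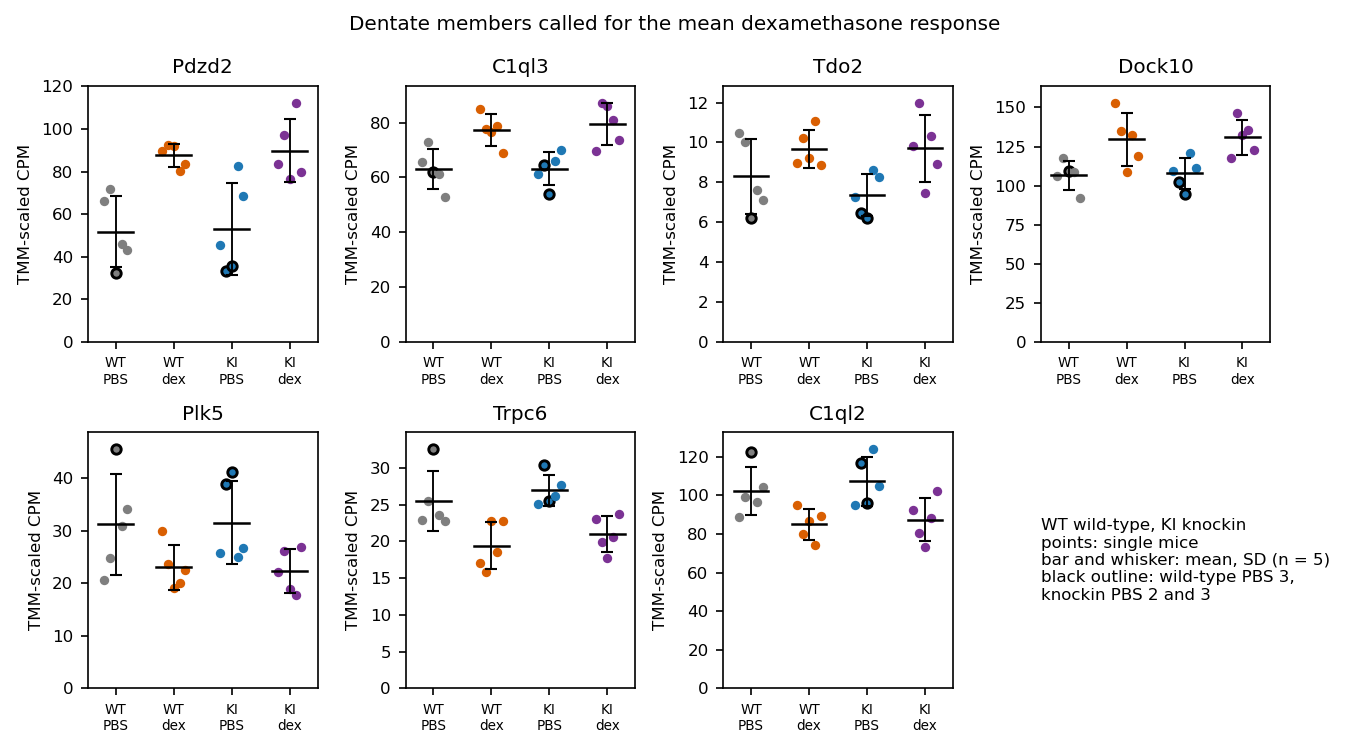
Level of the 7 called dentate genes in TMM-scaled CPM (vertical axis, from 0) for each mouse by group (WT wild-type, KI knockin). Points are single mice, bars with whiskers are means with SD (n = 5), and black outlines mark wild-type PBS 3 and knockin PBS 2 and 3. Pdzd2 lies at 32.2 to 71.6 CPM in wild-type PBS mice and at 80.4 to 92.5 after dexamethasone, and the outlined mice are lowest for Pdzd2 and Tdo2 and highest for Plk5.

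Of the 8 dentate genes not called, 5 had an unadjusted p below 0.05 in the mean response. Dsp, which encodes the desmosome protein desmoplakin, had a log2 fold change of 0.56 (SE 0.20, adjusted p 0.0591 by edgeR). It was at 60.9, 66.8, 30.4, 47.4 and 41.5 CPM in wild-type PBS and at 80.2, 80.9, 65.7, 86.2 and 67.8 CPM after dexamethasone. In knockin mice it was at 51.3, 31.9, 27.3, 89.9 and 66.1 CPM after PBS and at 66.3, 90.6, 65.9, 87.4 and 64.2 CPM after dexamethasone. The knockin PBS mice ran from 27.3 to 89.9 CPM and overlapped the dexamethasone mice, while in wild-type mice only PBS replicate 2 reached them. Calb1 was at 0.31 (adjusted p 0.148), Npnt, which encodes the matrix protein nephronectin, at 0.26 (adjusted p 0.126), the lactase gene Lct at 0.21 (adjusted p 0.0775) and Stxbp6 at -0.11 (adjusted p 0.110) on the log2 scale. Calls of Dsp and Lct depended on the test: the DESeq2 Wald test gave adjusted p 0.0267 for Dsp and 0.0266 for Lct. Without the 3 PBS libraries that stood apart the log2 fold changes were smaller, 0.29 for Dsp (adjusted p 0.225), 0.12 for Calb1 (adjusted p 0.556) and 0.09 for Npnt (adjusted p 0.496) by edgeR. Without the 2 liver-high libraries they were 0.72, 0.47 and 0.35, each called (adjusted p 0.0245, 0.0167 and 0.0452 by edgeR). Those 2 libraries held the highest wild-type PBS values of Dsp, Calb1 and Npnt, so leaving them out raises the estimates. The remaining 3 were Rfx3 at 0.06, Prox1 at 0.03 and Glis3 at 0.02, with adjusted p from 0.435 to 0.945. Prox1 had a 95% interval of -0.07 to 0.12 around its mean response, so a change of the size seen for Pdzd2, C1ql3 or Trpc6 is outside it. This holds for the Prox1 transcript alone, and whether granule cell content differed between the groups was not tested.

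The 6 CA1 genes showed no call. Spink8 had the largest estimate, 0.63 with an SE of 0.34 (adjusted p 0.244 by edgeR), and its interval ran from -0.09 to 1.36. The estimate was 0.22 without the 3 PBS libraries that stood apart and 1.00 without the 2 liver-high libraries (adjusted p 0.682 and 0.0647 by edgeR). Those 2 libraries held the highest wild-type PBS values of Spink8. It was at 16.8, 15.5, 3.24, 6.47 and 8.41 CPM in wild-type PBS, at 6.71, 11.3, 17.4, 14.2 and 14.5 in wild-type dexamethasone, at 9.58, 2.91, 1.75, 13.4 and 12.6 in knockin PBS and at 15.1, 14.7, 7.69, 19.9 and 17.4 CPM in knockin dexamethasone libraries. All groups overlapped. Wfs1 was at 0.13, Fibcd1 at 0.09, Mpped1 at 0.01, Man1a at -0.04 and Pou3f1 at -0.04 on the log2 scale. For Man1a and Mpped1 the 95% intervals were the narrowest of the list, -0.12 to 0.04 and -0.06 to 0.08.

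Among the 11 CA2 and CA3 genes none was called, and 2 had an unadjusted p below 0.05. Coch was at 0.50 (SE 0.19, adjusted p 0.0785 by edgeR). Its values were 4.13, 5.43, 4.35, 6.78 and 5.12 CPM in wild-type PBS, 4.78, 8.75, 10.4, 4.99 and 7.84 in wild-type dexamethasone, 5.95, 2.26, 5.47, 3.56 and 4.88 in knockin PBS and 4.72, 9.37, 5.87, 5.02 and 5.76 CPM in knockin dexamethasone libraries. The dexamethasone groups were spread upward by 4 libraries and still overlapped PBS. Elavl2 was at 0.12 (SE 0.05, adjusted p 0.148 by edgeR). Amigo2 stood at 0.30 with an SE of 0.19 (adjusted p 0.329). It was at 0.03 without the 3 PBS libraries (adjusted p 0.925 by edgeR). Without the 2 liver-high libraries, the highest of wild-type PBS for Amigo2, it was at 0.54, a call (adjusted p 0.0363 by edgeR). It was at 27.7, 27.8, 9.27, 15.5 and 17.5 CPM in wild-type PBS against 19.4 to 22.9 in wild-type dexamethasone, and at 19.5, 10.5, 8.54, 19.7 and 20.3 CPM in knockin PBS against 19.3 to 24.9 in knockin dexamethasone libraries. The PBS groups of Amigo2 were more widely spread than the dexamethasone groups. The other 8 genes had estimates from -0.05 for Rgs14 to 0.12 for Bok, and the 95% interval of Rgs14, the CA2 marker, ran from -0.13 to 0.03.

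**Figure D3:**
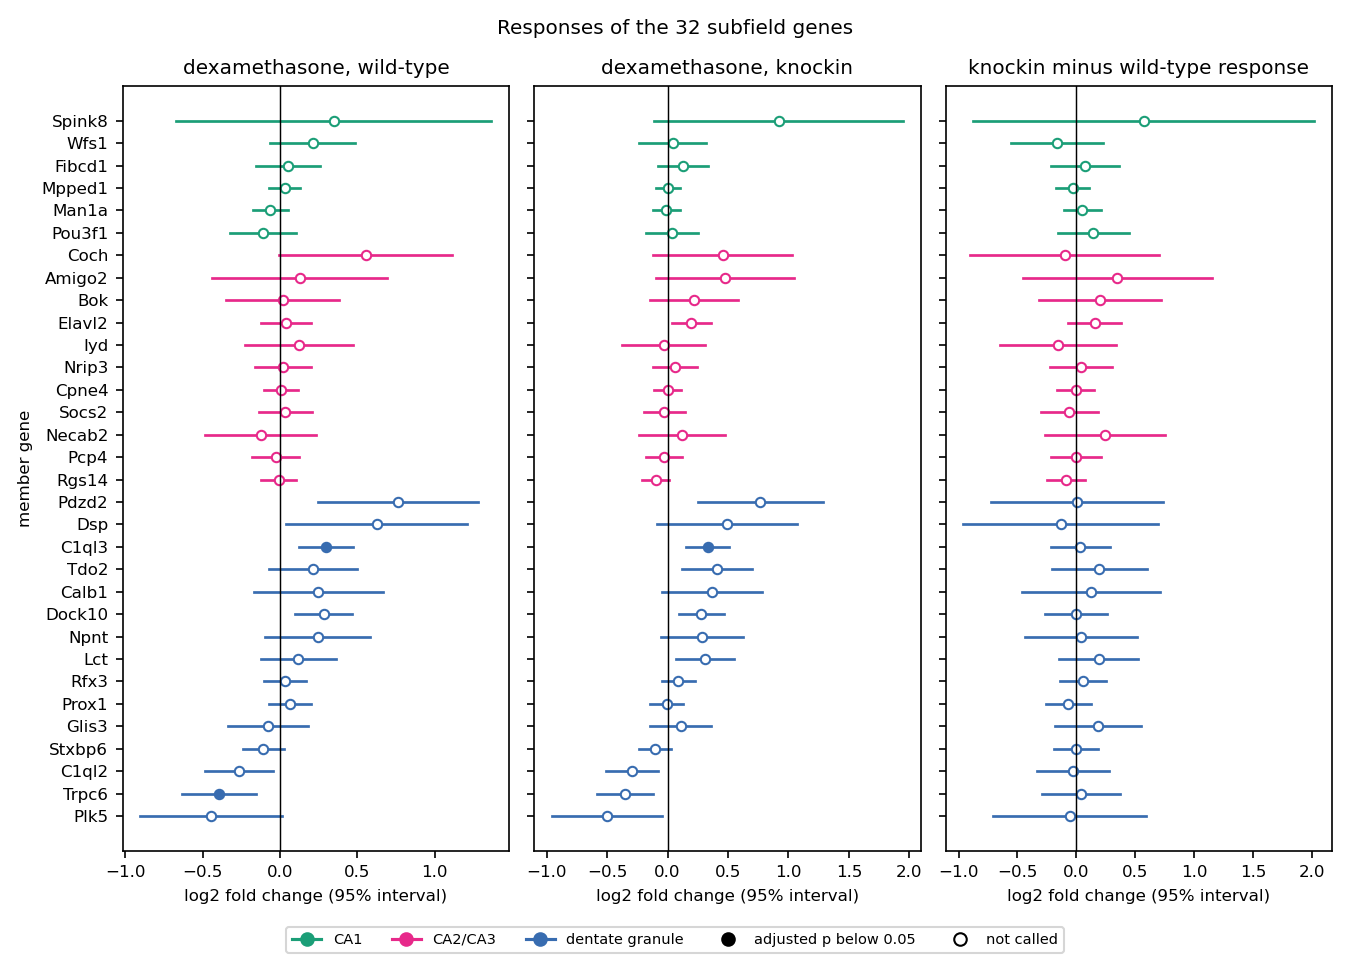
Log2 fold change after dexamethasone in wild-type mice (left), in knockin mice (middle) and the knockin response minus the wild-type response (right), with 95% intervals, for the 32 genes grouped and coloured by subfield. Filled points have an adjusted p below 0.05 (edgeR). C1ql3 is filled in both genotypes and Trpc6 in wild-type mice, and all 32 intervals of the right panel include 0.

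Genotype made no difference that could be called. Knockin against wild-type under PBS, knockin against wild-type under dexamethasone and the difference of the dexamethasone responses gave 0 called members, beside 0.0% of all genes in each, and also 0 members with an unadjusted p below 0.05 (edgeR). Over all genes 673 (3.61%), 828 (4.44%) and 527 (2.83%) had an unadjusted p below 0.05. No alternative test or set of libraries called any of the 32 genes in these comparisons, the DESeq2 Wald test and limma-voom among them. The smallest unadjusted p values were 0.146 for Rgs14 under PBS, 0.182 for Lct under dexamethasone and 0.167 for Elavl2 in the difference of responses. All 32 intervals included 0 in each comparison, which does not show that the genotypes act alike. The intervals lay within 0.5 on the log2 scale, a change of 1.41-fold, for 26 genes under PBS, 26 under dexamethasone and 17 in the difference of responses. For C1ql3 the difference of the knockin and wild-type responses was 0.03 (95% interval -0.21 to 0.28), for Dock10 -0.0039 (-0.27 to 0.26), for Trpc6 0.04 (-0.30 to 0.37) and for C1ql2 -0.03 (-0.34 to 0.28). For Pdzd2 it was 0.0050 with a wide interval of -0.73 to 0.74, and the widest was that of Spink8, 0.57 with -0.88 to 2.02.

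The spread between mice of the same group was large for these genes. The SD of log2 CPM around the group means was above the 90th percentile of 1000 genes of like level for 23 of 32 genes, beside 10.0% of all genes tested: 4 of 6 CA1, 7 of 11 CA2/CA3 and 12 of 15 dentate genes. Without the 3 PBS libraries that stood apart it was again 23 of 32, beside 9.96% of all genes. Spink8 had the largest SD, 0.90 on the log2 scale with all libraries and 0.53 without the 3. Amigo2 (0.45 and 0.23), Dsp (0.45 and 0.27), Coch (0.44 and 0.40), Pdzd2 (0.39 and 0.28) and Plk5 (0.34 and 0.26) followed. The steadiest were Mpped1 at 0.08, Cpne4 at 0.09, Man1a at 0.10 and Rgs14 at 0.10, and Prox1 was at 0.11. By this SD the defining genes Prox1 and Rgs14 were among the least variable of their lists, and Wfs1, at 0.21, was not. Among genes of like level, Prox1 lay at percentile 88.4 and Rgs14 at percentile 82.6, so both varied more than most such genes.

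**Figure D4:**
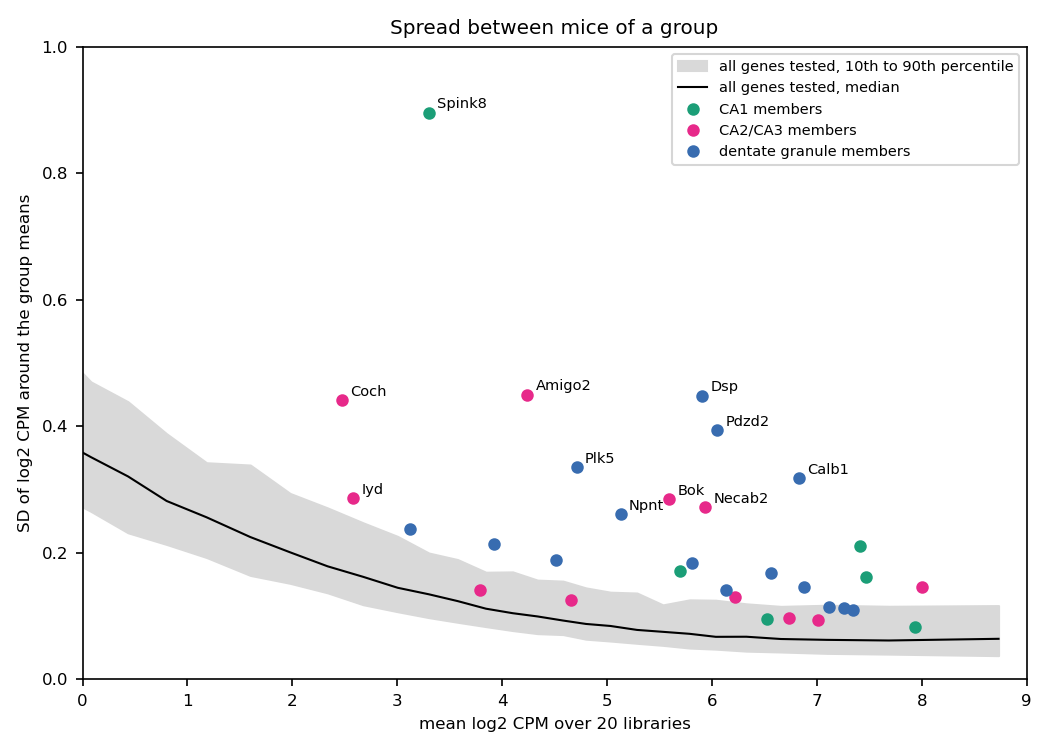
SD of log2 CPM around the group means (vertical axis) against mean log2 CPM over 20 libraries (horizontal axis). Points are the 32 subfield genes by list, and the grey band with its line gives the 10th to 90th percentile and the median of all genes tested. Most points lie above the band, with Spink8 at 0.90.

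To see whether genes of a list varied together between mice, 1 gene of each list was taken as an anchor. Wfs1, Rgs14 and Prox1 were each compared with every other gene over the 20 libraries, after the group means were taken away, in 90 pairs (permutation test with 100000 resamples, two-sided, Benjamini-Hochberg over the 90). The centred values were shuffled across all groups. Taking away the group means ties the values within a group, so these p-values may be too small. Prox1 and Stxbp6 rose and fell together, with Pearson's r of 0.86 (adjusted permutation p 0.0009) and a Spearman rank correlation of 0.81 (adjusted permutation p 0.0045). Without the 2 libraries farthest from the Prox1 median r was 0.75. Wfs1 and Elavl2 ran opposite, with r of -0.71 (adjusted permutation p 0.0198) and -0.70 without 2 libraries, but the rank correlation missed the threshold (adjusted permutation p 0.0769). No gene passed with Rgs14, and Prox1 passed with none of the dentate genes called for dexamethasone. Wfs1 passed with no other CA1 gene.

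**Figure D5:**
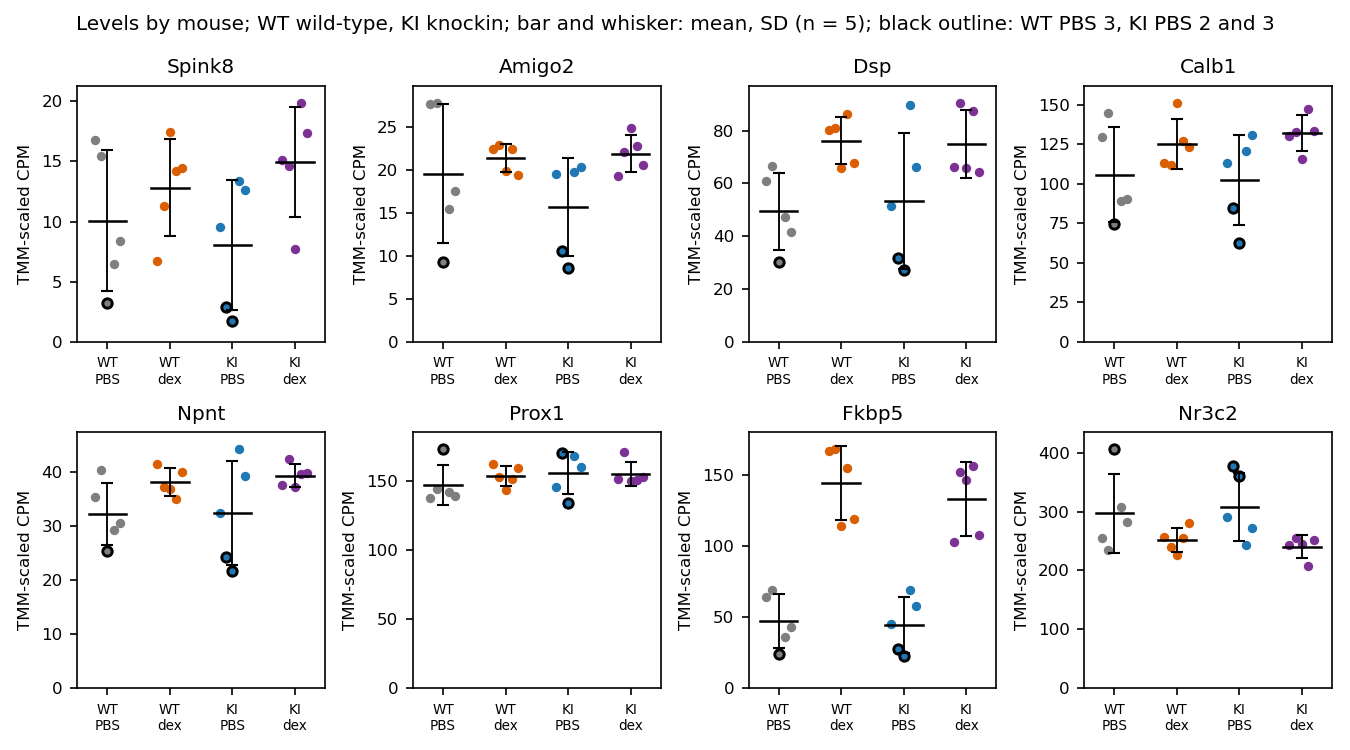
Level of 6 subfield genes and of Fkbp5 and Nr3c2 in TMM-scaled CPM (vertical axes, from 0) for each mouse by group; bars with whiskers are means with SD (n = 5). Outlined points, wild-type PBS 3 and knockin PBS 2 and 3, are lowest for Spink8, Amigo2, Dsp, Calb1, Npnt and Fkbp5 and highest for Nr3c2, while for Prox1 they lie at both ends, from 134 to 173 CPM.

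General neuron lists gave a backdrop for the mean response. Of 10 excitatory neuron genes 1 rose, the transcription factor Neurod2, by 0.14 on the log2 scale (adjusted p 0.0321 by edgeR), and none fell, a share close to the 9.79% of all genes called higher. Of 11 interneuron genes 3 rose and none fell, among them Reln, the secreted glycoprotein reelin, by 0.25 and Gad2, a GABA-synthesizing enzyme, by 0.13 (adjusted p 0.0128 and 0.0102 by edgeR). Without the 3 PBS libraries Neurod2, Reln and Gad2 were at 0.08, 0.23 and 0.12 and were not called (adjusted p 0.211, 0.0884 and 0.0646 by edgeR), and 1 interneuron gene remained called, beside 12.9% of all genes. None of 6 immature granule cell genes and none of 7 ventral hippocampus genes was called.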

How the data were processed

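Per the labels' protocols, poly(A) RNA of the hippocampus was sequenced as 75-base read pairs. The authors deposited raw counts of read pairs per gene, made with featureCounts 2.0.6 without strand on the GENCODE M34 annotation, per the file headers. Per the submitters' processing notes, alignment used STAR 2.5.1 and the build mm39. Symbols came from a table of names and matched 51884 of 57126 identifiers. Of the 32 genes, 6 share exonic bases with another gene: Pou3f1, Pcp4, Amigo2, Prox1, C1ql3 and Dsp.

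From these counts edgeR 4.0.16 (R 4.3.3) kept 18648 genes (filterByExpr), scaled libraries by TMM and fitted a robust quasi-likelihood model to all 20 libraries with 1 term per group. A gene was called at an adjusted p below 0.05 over all genes tested. Log2 CPM used a prior count of 2. The labels call libraries of a group biological replicates, read here as separate mice; otherwise p-values would measure a spread that may be technical. No 2 libraries of a group agreed within counting error: over 40 pairs the mean chi-square of a gene was 2.51 to 12.6. The fit was tested on simulated data first.

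The members and lists were chosen with earlier results of these data known. All 32 genes may be named, with up to 4 called genes of each other list and the highest-level genes. Fkbp5, Zbtb16 and Nr3c2 were chosen after their values were seen. The values of 1 interneuron gene are not reported here. The myelin and surrounding-tissue lists gave these calls for the mean response, beside 9.79% of all genes called higher and 8.41% lower: 1 higher and 5 lower of 10 myelin genes, 1 higher and 1 lower of 11 striatum genes, 1 lower of 9 neocortex genes, 1 higher of 12 thalamus genes, 1 lower of 15 liver genes, and 0 of 13 choroid plexus and 0 of 6 red blood cell genes tested. Without wild-type PBS 3 and knockin PBS 2 and 3 these were 1 and 4 of 10 for myelin and 2 and 1 of 12 for thalamus, and the counts called in the other lists were the same (12 striatum genes tested). Alternatives were DESeq2 1.42.0 (size factors, Wald test), limma-voom (limma 3.58.1), other filters, the compared libraries alone, a replicate block and leaving out libraries. Leaving out wild-type PBS 3 and knockin PBS 2 and 3 was chosen after seeing the data.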

Additional observations from a re-analysis of the deposited data

Results flagged for a closer look

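A value far from the others was sought in 196 sets of 5 values, each set being 1 gene or list measure in 1 of the 4 groups. Of these sets 18 held one. Chance gives about 1 in 20 for independent sets, and these sets share mice and genes, so the count cannot be weighed against that rate. In wild-type PBS mice, replicate 3 was far above the others for Prox1 (173 CPM) and Trpc6 (32.5 CPM), replicate 4 for choroid plexus transcripts (2624 CPM) and replicate 2 for thalamus and habenula transcripts (176 CPM). In wild-type dexamethasone mice, replicate 1 was far below for Fibcd1 (153 CPM) and for the mean centred log2 level of the CA2/CA3 list (-0.026), and far above for that of the dentate list (0.12). In the same group Socs2 was far above in replicate 4 (16.9 CPM), Glis3 far below in replicate 5 (13.6 CPM), choroid plexus transcripts far above in replicate 2 (676 CPM) and myelin transcripts far below in replicate 3 (3814 CPM). In knockin PBS mice, replicate 3 was far below for Rgs14 (101 CPM) and Stxbp6 (156 CPM). In knockin dexamethasone mice, replicate 2 was far above for Coch (9.37 CPM), Prox1 (171 CPM) and choroid plexus transcripts (2131 CPM), and in replicate 3 Nrip3 was far above (311 CPM) and striatum transcripts far below (176 CPM).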

How the results depend on the processing

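For the mean dexamethasone response, 5 of the 7 called genes (C1ql2, C1ql3, Dock10, Pdzd2 and Trpc6) kept their call under all 29 alternatives, and Tdo2 and Plk5 lost it under 9 and 17. The count of called members was 13 without the liver-high wild-type PBS replicates 1 and 2, where Amigo2, Calb1, Dsp, Elavl2, Npnt and Stxbp6 were added. Of these genes, Amigo2, Calb1, Dsp, Elavl2 and Npnt had their highest wild-type PBS values in those 2 libraries. In wild-type mice the count of 2 became 5 with DESeq2's Wald test, 4 without the liver-high libraries, 1 with the compared libraries alone, and 0 with no filter, without the choroid-high libraries or without the 3 PBS libraries that stood apart. Over all genes, 1717 of 18648 were called in wild-type mice in the main fit and 1831 of 18648 with the Wald test. It was 1747 of 19077 without the liver-high libraries, 1611 of 18153 with the compared libraries alone and 1522 of 39196 with no filter. In knockin mice the count of 1 became 7 with the Wald test, 4 with limma-voom or the compared libraries alone, 3 with the stricter filter or without the liver-high libraries, 2 with DESeq2 size factors, and 0 without the choroid-high or the 3 PBS libraries. Without those 3, 1222 genes were called in knockin mice in place of 1864. Over all genes, the knockin calls were 2003 of 18648 with the Wald test, 1987 of 18648 with limma-voom and 1701 of 17917 with the compared libraries alone. They were 1756 of 14666 with the stricter filter, 1910 of 19077 without the liver-high libraries and 1858 of 18648 with DESeq2 size factors. Leaving out single libraries gave 0 to 4 members in wild-type (0 without wild-type PBS 3), 1 to 5 in knockin mice and 5 to 10 in the mean response. Over all genes the same settings called 1288 to 1784, 1501 to 1955 and 2966 to 3480 genes in the same order, lowest in wild-type without wild-type PBS 3. The wild-type calls of C1ql3 and Trpc6 were also both lost without wild-type dexamethasone 1, 2 or 4. The highest mean count, 10, came without knockin PBS 4, and the lowest, 5, without wild-type PBS 3 and others. With the compared libraries alone 1 gene, no member, was called between genotypes under dexamethasone. No called direction reversed.

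Same-numbered mice of different groups gave correlations from -0.11 to 0.25. Mice with different numbers were not compared in this way, so whether the numbers pair samples was not settled. A replicate block left 7 members called in the mean response (Dsp in place of Plk5), gave 3 in knockin mice, and ended the wild-type call of Trpc6 (adjusted p 0.0540). With the block, 3367 of 18648 genes were called in the mean response and 1843 of 18648 in knockin mice.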
